A study of Mus musculus with 18 samples.

Results

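The cerebellum of Cck-/- mice was compared between postnatal week 28 and postnatal week 5, with 3 libraries at each age. These 6 libraries were taken from a series of 18 by genotype and age alone, and the 3 Cck-/- libraries of week 12 are given beside them to separate early from late change. Of the 22783 genes in the deposited table, 13487 entered the tests, namely those that reached 1 FPKM (fragments per kilobase of transcript and unit of mapped fragments, a level corrected for length and depth) in 3 or more of the 18 libraries. All mice were of the FVB strain and all are labelled Cck-/-, that is, without a working copy of the gene of cholecystokinin, a neuropeptide of brain and gut, so no library analysed here is Cck wild type. The groups were Cck-/- week 5, Cck-/- week 12 and Cck-/- week 28. A last comparison adds the ATXN1[30Q]D776/Cck-/- libraries of week 28 and week 5, 3 of each. The 3 ATXN1[30Q]D776/Cck-/- libraries of week 12 were in no contrast. All 18 libraries, these included, entered the filter, the estimate of spread behind every test and a later search for abrupt changes. Those mice carry, beside the Cck deletion, a transgene for ataxin-1, the protein altered in spinocerebellar ataxia type 1, with a tract of 30 glutamines and, as the D in the name gives, an aspartate at the numbered residue; they are called transgenic below. Neither the promoter that drives the transgene nor the sex of the mice is stated in the labels.

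The cerebellar cortex holds granule neurons, the most numerous neurons of the brain, whose axons excite Purkinje cells, the only output of the cortex; inhibitory interneurons, Bergmann glia, microglia and myelinating oligodendrocytes surround them. In the mouse the circuit is assembled in the first postnatal weeks, while myelin is still being deposited in adolescence, which demands much cholesterol. In ageing brain, microglial, complement and antigen presentation genes are known to become more abundant.

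RNA came from cerebella, and no label ties a library to its own animal, so p-values measure the spread between libraries, which may be technical. Log2 levels correlated at 0.984 to 0.995 among the week 28 libraries, at 0.994 to 0.996 among those of week 5 and at 0.975 to 0.984 between the ages. The Purkinje cell genes Pcp2 and Calb1 and the granule neuron genes Gabra6 and Cbln1 were among 11 of 12 cerebellum defining markers that passed the filter. The number of reads per library is unknown. The spacing of low FPKM values gives depth relative to the first week 5 library: 0.94 to 1.12 in the Cck-/- libraries of week 5, 1.01 to 1.16 at week 12 and 1.4 to 1.83 at week 28, and 1.41 to 1.85 in the transgenic week 28 libraries. Week 28 libraries of both genotypes were thus the deepest, and age cannot be told apart from whatever set their depth. Xist, transcribed from the inactive X chromosome of females, was above 1 FPKM in 2 of 3 libraries at week 28 and in 1 of 3 at week 5. With the Xist level as a covariate 4371 genes were called, against 4551 without it. Replicate 1 of week 28 had the highest level of meningeal genes, a mean log2(FPKM + 1) of 4.30 against 3.35 and 3.47 in the other week 28 libraries and 3.02 to 3.51 at week 5; counts of 5 or more called list members that moved by over 1.5 times without this library are given with both values.

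Between week 5 and week 28 the Cck-/- cerebellum lost RNA of myelin, cholesterol synthesis and granule neurons and gained RNA of microglia, antigen presentation and inhibitory interneurons, while no Purkinje cell identity gene passed the test. With limma on log2(FPKM + 1) and adjustment over all genes tested, 4551 genes passed an adjusted p under 0.05, which is 33.7% of those tested: 2164 (16%) were higher and 2387 (17.7%) lower at week 28. Most changes were small, since 49 of the higher and 78 of the lower genes changed by at least 1 on the log2 scale. The median change over all genes was 0.00117. The 3 libraries of week 28 lay wholly above the 3 of week 5 for 3132 genes (23.2%) and wholly below for 3281 (24.3%). Without replicate 1 of week 28, the homeostatic microglia genes called higher numbered 6 rather than 12. The class I antigen presentation genes called higher then numbered 7 rather than 11. In this bulk tissue, fewer cells of a type and less RNA per cell cannot be told apart.

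**Figure D1:**
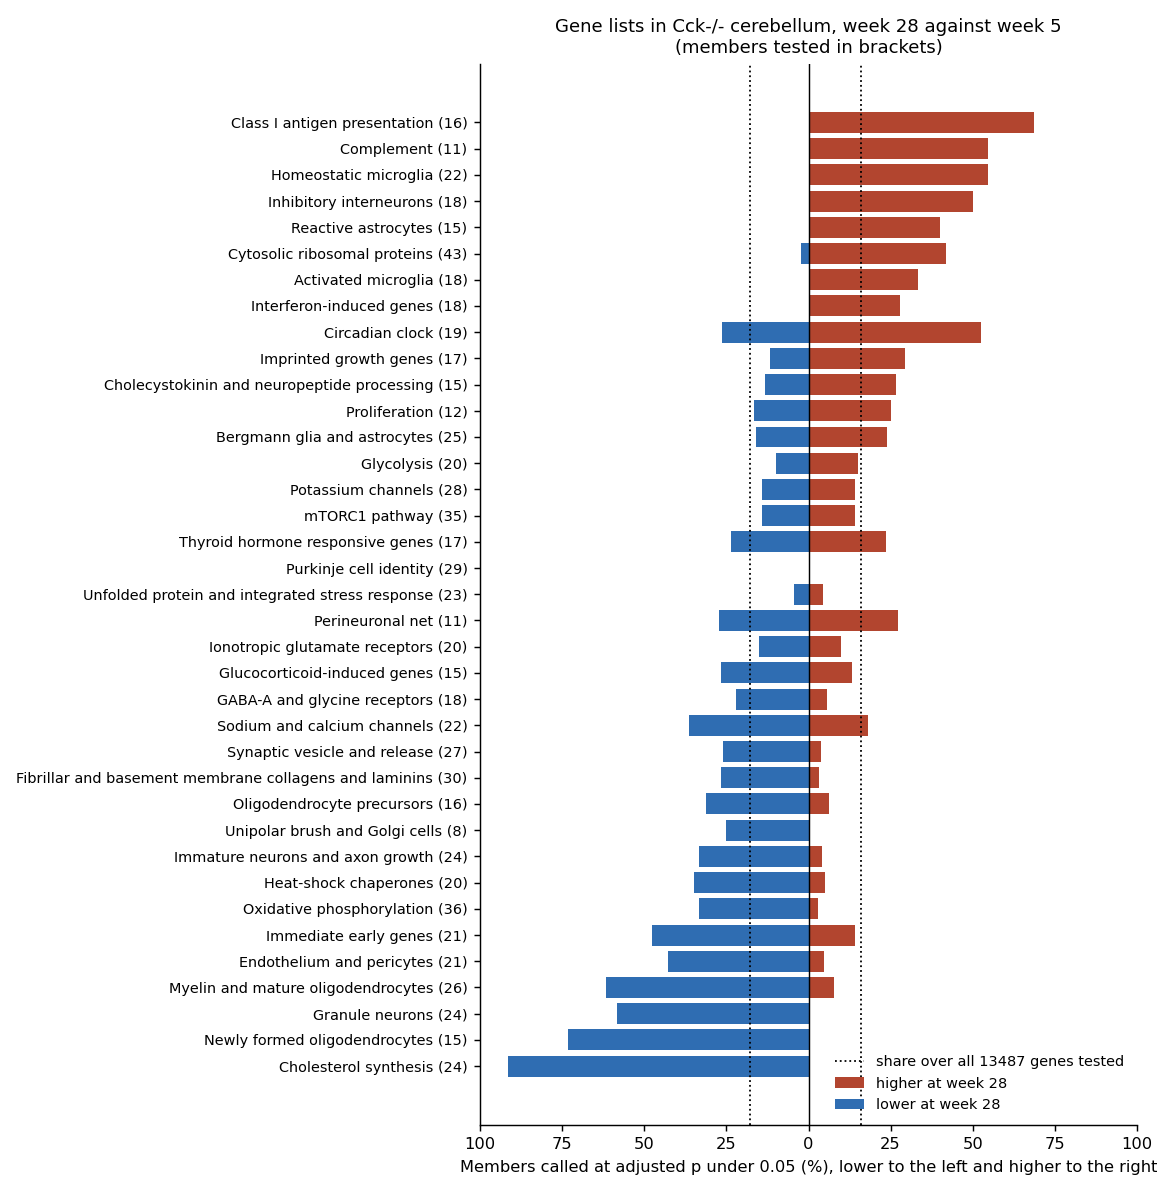
Percentage of tested members of each gene list that were called higher (red, to the right) or lower (blue, to the left) at week 28 than at week 5 in Cck-/- cerebellum (limma, adjusted p under 0.05, 3 libraries an age); dotted lines mark the shares over all 13487 genes, 16% and 17.7%. Cholesterol synthesis, with 22 of 24 members lower, and class I antigen presentation, with 11 of 16 higher, have the highest shares in each direction, and Purkinje cell identity has no called member.

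Among single genes the largest rise outside predicted genes was that of Il33, which encodes the alarmin interleukin-33, a nuclear cytokine of glia (chromosome 19, 29925114 to 29960715, mm10). Its libraries held 3.94, 3.69 and 4.49 FPKM at week 5, 15.9, 12.9 and 11.8 FPKM at week 12 and 27.3, 21.5 and 19.8 FPKM at week 28. No library of one age overlapped another age, and the level climbed at both steps (log2 fold change 2.23, SE 0.14, adjusted p = 5.97e-08; limma). Neat1, the long noncoding RNA that builds nuclear paraspeckles, stood at 61.4, 60.8 and 66.7 FPKM at week 28 against 16.5, 14.8 and 17.2 FPKM at week 5, and its 3 week 12 libraries lay between, at 29.4 to 34.4 FPKM. Its log2 fold change was 1.90 (SE 0.11, adjusted p = 1.21e-08; limma). Etnppl, an astrocyte enzyme that breaks down phosphoethanolamine, rose by 1.93 (SE 0.23), of which 1.69 was present by week 12. Abca8a, a lipid transporter gene, rose by 1.52, Zkscan16, a zinc finger gene, by 1.55, Rprml by 1.64 and Fam163b by 1.63. Pcdhgb8 rose by 1.89 with an SE of 0.46; it shares its last exons with other gamma protocadherins, so its share of their reads is uncertain.

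The largest falls included Necab3, a calcium-binding protein gene, at 8.44, 9.67 and 13.4 FPKM at week 28 and 45.1, 45.6 and 49.7 FPKM at week 5. All week 28 libraries lay far below all week 5 libraries (log2 fold change -2.08, SE 0.17, adjusted p = 6.75e-07; limma). Mybpc3, best known as a cardiac myosin-binding protein gene, changed by -1.75 (SE 0.22), with -1.46 of this by week 12. Cdkn1a, which encodes the cell cycle inhibitor p21, changed by -1.63 (SE 0.14), spread over both steps (-0.99 early, -0.64 late). The other named large changes belong to the groups below or to a set of abrupt week 28 changes described near the end.

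Cck itself fell. Its RNA is still measured in animals labelled Cck-/- (chromosome 9, 121489824 to 121495694, mm10), at 25.8, 17.1 and 19.5 FPKM at week 5, 13.8, 16.6 and 11.1 FPKM at week 12 and 7.34, 3.85 and 3.71 FPKM at week 28. Every week 28 library was below every week 12 library and every week 12 library was below every week 5 library. The log2 fold change from week 5 to week 28 was -1.90 (SE 0.23, adjusted p = 2.43e-05; limma), with -1.35 of it after week 12 (adjusted p = 0.00259) and -0.55 before (adjusted p = 0.14). A gene-level FPKM does not show which part of the gene the reads came from, so these values do not check the deletion. Of 15 tested genes of cholecystokinin and neuropeptide processing, 4 rose and 2 fell: Pam, the enzyme that amidates peptide ends, rose by 0.52 (SE 0.08), Scg5, the chaperone of a prohormone convertase, by 0.46 (SE 0.08) and Pcsk1n, an inhibitor of another, by 0.31 (SE 0.05). The receptor gene Cckbr stood at 1.85, 0.741 and 0.705 FPKM at week 28 and 0.935, 0.724 and 1.24 FPKM at week 5, which overlap (log2 fold change 0.06, SE 0.22, adjusted p = 0.859; limma), and its sign turned without replicate 1 of week 28 (-0.183). Cckar, the gene of the receptor named in the series title, was at most 0.0838 FPKM in any library and was not tested.

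By median change, myelin genes fell the most of the cell type groups, and nearly all of their fall was present at week 12. Of 26 tested genes of myelin and mature oligodendrocytes, 16 were lower and 2 higher at week 28, with a median log2 fold change of -0.749. Ugt8a, the enzyme that makes galactosylceramide, the main glycolipid of myelin, held 94.1, 117 and 102 FPKM at week 5, 34.5, 32.8 and 35.3 FPKM at week 12 and 32.8, 29.4 and 25.3 FPKM at week 28. The week 5 libraries stood apart from all 6 later ones (log2 fold change -1.80, SE 0.09, adjusted p = 5.28e-09; limma). Mog, a surface glycoprotein of the sheath, held 115, 129 and 119 FPKM at week 5, 50.4, 41.7 and 38.5 FPKM at week 12 and 48.1, 39.2 and 35.0 FPKM at week 28, so the later ages overlapped each other and neither overlapped week 5 (log2 fold change -1.56, SE 0.11). Fa2h, which hydroxylates the fatty acids of those lipids, changed by -1.34 (SE 0.07), Gal3st1, which sulfates them, by -1.24 (SE 0.08), Cldn11, the claudin of myelin tight junctions, by -1.75 (SE 0.13) and Mal, a proteolipid, by -1.74 (SE 0.15). Mbp, myelin basic protein, stood at 1496, 1414 and 1191 FPKM at week 28 against 2831, 3259 and 2850 FPKM at week 5 (log2 fold change -1.13, SE 0.10).

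The members that rose were Hapln2, a link protein of the nodes of Ranvier, by 0.35 (SE 0.08), and Anln, an actin-binding scaffold, by 0.26 (SE 0.09); without replicate 1 of week 5 the adjusted p of Anln was 0.204 (limma), and leaving out replicate 3 of week 5, or replicate 1 or 2 of week 28, also ended its call. In the step to week 12 the myelin list had a median of -0.785 with 18 members lower and 0 higher (over all genes 6.53% were lower and 5.29% higher). In the step from week 12 to week 28 its median was 0.0236, with 3 members higher and 0 lower (over all genes 4.03% and 5.62%). The difference between both steps was itself tested, and it passed for 13 of the 26 members, in each of them with the early change the more negative; over all genes 1.74% passed, 0.994% in that direction and 0.749% in the other.

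**Figure D2:**
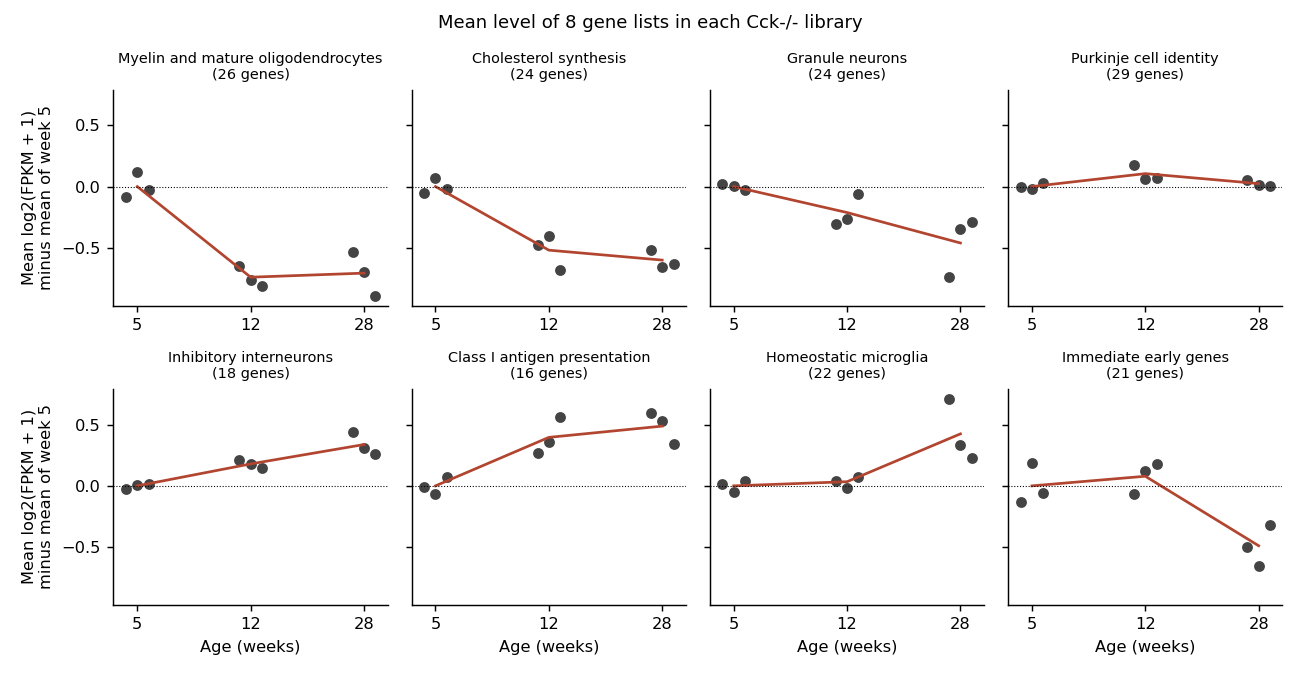
Mean log2(FPKM + 1) of 8 gene lists in each Cck-/- library (points, 3 an age) minus the mean of the week 5 libraries, at ages 5, 12 and 28 weeks, evenly spaced; the line joins the means. The myelin and cholesterol lists drop before week 12, the microglia and immediate early lists move after it, and Purkinje cell identity stays near 0.

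Genes of earlier oligodendrocyte stages also fell, though precursor genes less uniformly. Of 15 genes of newly formed oligodendrocytes 11 were lower and 0 higher (median -0.476), among them Gpr17, a receptor of cells about to myelinate, at 3.82, 3.56 and 2.83 FPKM at week 28 and 12.4, 12.5 and 12.3 FPKM at week 5. Its groups did not overlap (log2 fold change -1.61, SE 0.13), and -0.56 of the change came after week 12. Sirt2, a deacetylase abundant in oligodendrocytes, changed by -0.56 (SE 0.04), Rras2 by -0.71 (SE 0.07) and the kinase Fyn by -0.37 (SE 0.04). Of 16 precursor genes 5 fell and 1 rose, with a median of -0.0317; the lineage transcription factors Olig1 and Olig2 changed by -0.75 (SE 0.12) and -0.38 (SE 0.09).

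Cholesterol synthesis was the list with the highest share of called members: 22 of 24 fell and 0 rose, with a median log2 fold change of -0.55. Hmgcs1, which makes the precursor HMG-CoA, held 119, 144 and 129 FPKM at week 5, 62.9, 66.1 and 50.7 FPKM at week 12 and 64.1, 47.6 and 47.6 FPKM at week 28. The later ages overlapped each other and lay wholly below week 5 (log2 fold change -1.29 with an SE of 0.12, adjusted p = 2.1e-06; limma). Cyp51, a demethylase of the sterol ring, changed by -1.19 (SE 0.10) and Fdps, a synthase of its isoprenoid stage, by -0.78 (SE 0.05). In the step to week 12 the median was -0.491, with 21 members lower, and in the step after it -0.0763, with 3 lower. Sterol genes are switched by SREBP-2, which binds the sterol regulatory element; the promoter of Hmgcs1 is shown because it holds a match to the letters TCACNCCAC, searched on both strands. Its window runs from 250 bases before to 50 bases after the RefSeq start (GRCm38.p6, chr13:119690101-119690400, plus strand), and the match, in capitals, begins 137 bases before the start:
Hmgcs1 promoter: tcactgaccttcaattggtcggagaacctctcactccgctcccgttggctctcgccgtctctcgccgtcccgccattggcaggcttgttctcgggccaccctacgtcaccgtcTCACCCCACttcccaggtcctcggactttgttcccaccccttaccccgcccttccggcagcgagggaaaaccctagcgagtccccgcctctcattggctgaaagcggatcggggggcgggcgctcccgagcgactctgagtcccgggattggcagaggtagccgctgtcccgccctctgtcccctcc
Of the 17 list members with a promoter in the RefSeq table, 1 held these letters (5.88%), against 143 of 10117 promoters of tested genes (1.41%).

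**Figure D3:**
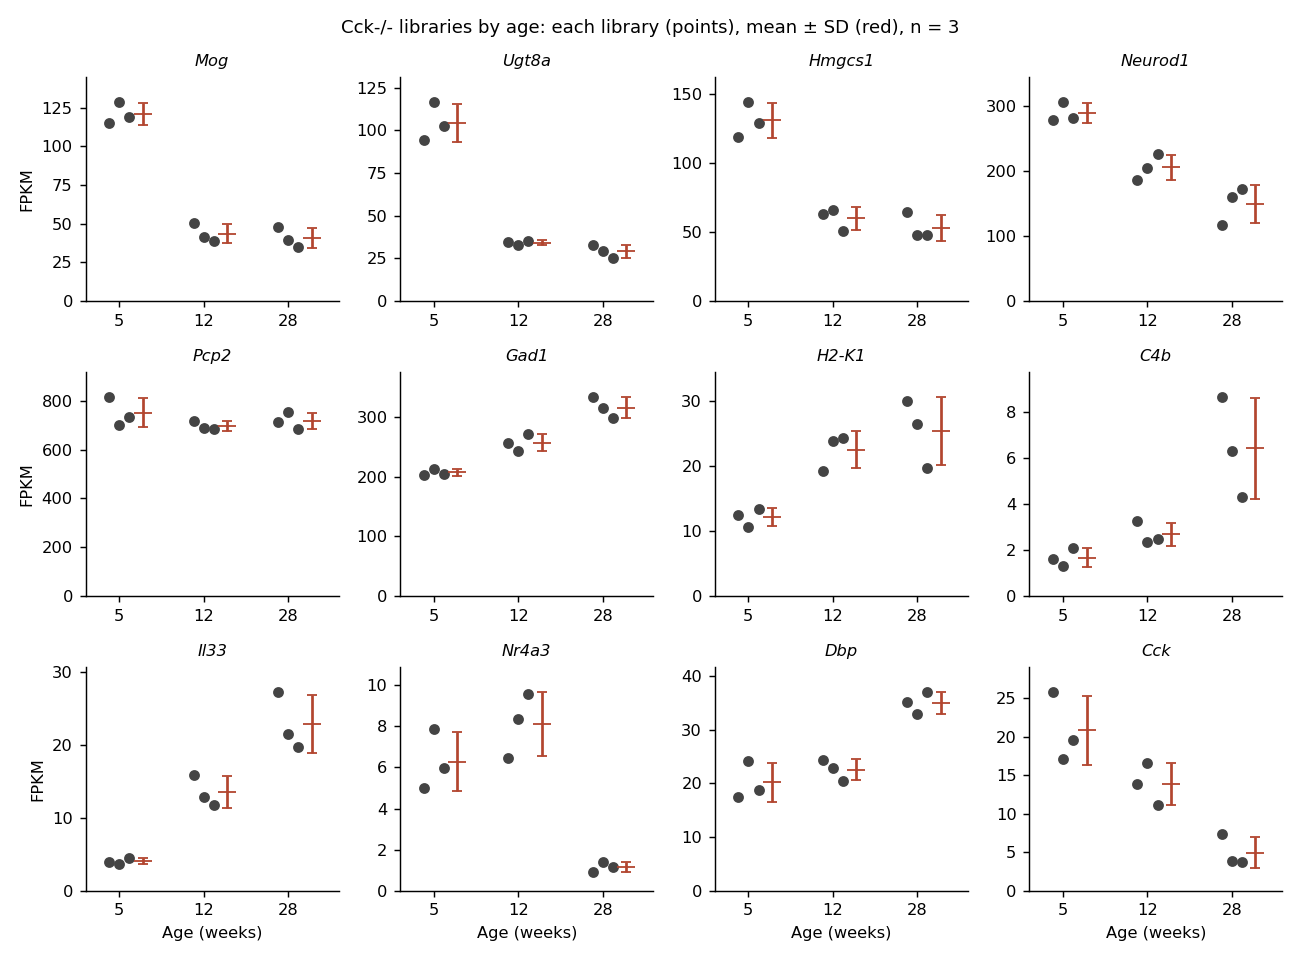
FPKM of 12 genes in every Cck-/- library (points) at ages 5, 12 and 28 weeks, with the mean and SD of the 3 libraries in red; each panel has its own linear axis from 0. Mog, Ugt8a and Hmgcs1 are high in the week 5 libraries alone, Nr4a3 is low and Dbp high in the week 28 libraries alone, Il33 climbs at both steps, and the ages overlap for Pcp2.

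Granule neuron genes fell, with similar medians in both steps. Of 24 tested, 14 were lower and 0 higher at week 28 (median -0.391; -0.17 before week 12 and -0.188 after). Neurod1, a transcription factor that granule neurons need to form and survive, held 278, 306 and 281 FPKM at week 5, 186, 204 and 225 FPKM at week 12 and 116, 160 and 172 FPKM at week 28. The ages did not overlap (log2 fold change -0.96, SE 0.11, adjusted p = 1.6e-05; limma). Ntf3, the growth factor neurotrophin-3, stood at 1.70, 2.32 and 2.79 FPKM at week 28 against 10.9, 8.53 and 8.25 FPKM at week 5 (log2 fold change -1.65, SE 0.18). Nrn1, neuritin, changed by -0.91 (SE 0.11), the potassium channel gene Kcnk1 by -0.57 (SE 0.07) and the zinc finger factor Zic1 by -0.48 (SE 0.08). Cbln1, the secreted organizer of the synapses onto Purkinje cells, changed by -0.40 (SE 0.12), and Gabra6, the GABA-A subunit of granule neurons, by -0.44 (SE 0.14). Without replicate 1 of week 28 the adjusted p of these was 0.0777 and 0.12 (limma); the change of Cbln1 was then -0.216, and that library was the lowest of its age for both. Leaving out replicate 1 or 2 of week 5 also ended both calls, and leaving out replicate 3 of week 5 ended that of Gabra6. Replicate 1 of week 28 also had the lowest mean log2 level of the granule neuron list, 5.998 against 6.39 and 6.45 in the other week 28 libraries and 6.72 to 6.77 at week 5. Of the 11 tested cerebellum defining markers 6 were lower and 0 higher; 3 were lower without that library or without any one of the week 5 libraries.

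Genes of immature neurons and axon growth fell as well, 8 of 24 with 1 higher (median -0.172). Marcksl1, an actin regulator of growing axons, stood at 22.4, 17.2 and 15.8 FPKM at week 28 against 49.0, 45.8 and 46.2 FPKM at week 5, with no overlap (log2 fold change -1.32, SE 0.12). Its relative Marcks changed by -0.92 (SE 0.10) and Nrep, a protein of regenerating neurons, by -1.20 (SE 0.14). The member that rose was Tubb3, a neuronal beta-tubulin, by 0.60 (SE 0.14). Among other neurons of the cortex, Eomes, the transcription factor of unipolar brush cells, held 12.7, 10.4 and 12.2 FPKM at week 5, 11.6, 13.5 and 22.7 FPKM at week 12 and 3.55, 4.19 and 3.86 FPKM at week 28. All of its fall thus came after week 12 (late step -1.75, adjusted p = 0.000108; difference of the steps, adjusted p = 0.00429; limma). Calb2, calretinin, of granule neurons and brush cells, changed by -0.62 (SE 0.17).

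Purkinje cell identity genes did not pass the test. Of 29 tested, 0 were called by limma in either direction (median 0.0522), 1 had an unadjusted p under 0.05, and in a fit of the 9 Cck-/- libraries alone 4 were called higher and 2 lower. Pcp2, a modulator of G proteins found almost wholly in Purkinje cells, stood at 714, 753 and 686 FPKM at week 28 against 817, 702 and 734 FPKM at week 5, which overlap (log2 fold change -0.06, SE 0.18, 95% interval -0.45 to 0.33). Itpr1, the calcium release channel of the endoplasmic reticulum, stood at 441, 372 and 359 FPKM at week 28 against 273, 302 and 304 FPKM at week 5. The groups did not overlap, yet the change of 0.41 missed the threshold (SE 0.19, adjusted p = 0.105; limma). Each SE pools the spread within all 6 groups, the transgenic ones included. The mean log2 level of this list had an SD of 0.336 among transgenic week 28 libraries. Among Cck-/- libraries the SD was 0.0235 at week 5 and 0.0229 at week 28. The endogenous Atxn1 gene stood at 4.05, 6.26 and 6.92 FPKM at week 28 and 4.71, 5.96 and 5.17 FPKM at week 5. Its log2 fold change of 0.08 (SE 0.15, adjusted p = 0.709; limma) turned its sign without replicate 3 of week 28 (-0.0489).

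Inhibitory interneuron genes moved up: 9 of 18 were higher and 0 lower (median 0.364; 0.16 early and 0.193 late). Gad1 and Gad2 encode the enzymes that make the transmitter GABA. Gad1 held 202, 213 and 205 FPKM at week 5, 256, 243 and 271 FPKM at week 12 and 333, 315 and 298 FPKM at week 28. It climbed at both steps with no overlap (log2 fold change 0.60, SE 0.08, adjusted p = 3.72e-05; limma), and Gad2 rose by 0.61 (SE 0.07). Kit, the receptor of molecular layer interneurons, stood at 96.1, 86.2 and 78.6 FPKM at week 28 against 54.1, 57.9 and 54.2 FPKM at week 5 (log2 fold change 0.64, SE 0.10). Sorcs3, a sorting receptor, rose by 0.44 (SE 0.09). Purkinje cells also express Gad1 and Gad2, so these are not markers of interneurons alone.

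Synaptic and channel genes changed one by one. Over all genes tested 33.7% were called, with 16% higher and 17.7% lower. The share called was below that for synaptic vesicle (29.6%), GABA-A and glycine receptor (27.8%), ionotropic glutamate receptor (25%) and potassium channel genes (28.6%). For sodium and calcium channel genes it was 54.5%. Of 27 synaptic vesicle and release genes 7 fell and 1 rose (median -0.126), led by Slc17a7, the vesicular glutamate transporter of granule neurons, at 121, 184 and 186 FPKM at week 28 against 291, 313 and 281 FPKM at week 5 (log2 fold change -0.87, SE 0.14). Rims3, a protein of the release site, changed by -0.70 (SE 0.11), Syt12 by -0.54 (SE 0.10) and Sv2b by -0.35 (SE 0.07). Of 22 sodium and calcium channel genes 8 fell and 4 rose. Cacna1e, the R-type calcium channel, stood at 9.40, 10.9 and 13.5 FPKM at week 28 against 21.9, 28.1 and 26.3 FPKM at week 5 (log2 fold change -1.12, SE 0.17), while Scn1a, a sodium channel of fast-spiking neurons, rose by 0.41 (SE 0.06); the list had 5 members lower without replicate 2 or replicate 3 of week 5 or replicate 1 of week 28, and 2 higher without any one library but replicate 1 of week 28. Of 18 GABA-A and glycine receptor genes 4 fell and 1 rose: Gabra3 stood at 10.5, 9.50 and 9.25 FPKM at week 28 against 4.98, 5.28 and 5.07 FPKM at week 5 (log2 fold change 0.81, SE 0.08), and the scaffold gephyrin gene Gphn changed by -0.37 (SE 0.05). The fallers of that list numbered 2 without replicate 2 or replicate 3 of week 5. Of 20 ionotropic glutamate receptor genes 3 fell and 2 rose, with Grik2 at -0.46 (SE 0.06); without replicate 3 of week 28, 5 fell. Of 28 potassium channel genes 4 fell and 4 rose, with Kcnj6 at -0.75 (SE 0.14) and Kcnc4 at 0.42 (SE 0.08).

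Microglial genes rose, and those of homeostatic microglia were called in the step after week 12 and not in the step before it. Of 22 genes of homeostatic microglia 12 were higher and 0 lower at week 28 (median 0.467), but 6 were higher without replicate 1 of week 28. In the step to week 12, 0 were called by limma and 0 had an unadjusted p under 0.05, with a median of 0.0777; after week 12, 4 were called higher and 13 had an unadjusted p under 0.05, with a median of 0.396. The difference of the steps was called for 0 of the 22. Ctss, the lysosomal protease cathepsin S, held 24.2, 20.3 and 23.1 FPKM at week 5, 27.3, 27.5 and 30.8 FPKM at week 12 and 52.5, 41.4 and 36.2 FPKM at week 28. No ages overlapped (log2 fold change 0.90, SE 0.18, adjusted p = 0.00125; limma). Cx3cr1, the fractalkine receptor, held 4.83, 4.72 and 4.48 FPKM at week 5, 4.34, 4.40 and 4.78 FPKM at week 12 and 9.68, 6.96 and 6.16 FPKM at week 28, so weeks 5 and 12 overlapped and week 28 lay above both (log2 fold change 0.58, SE 0.15). Laptm5 rose by 0.59 (SE 0.14) and Itgam, the complement receptor subunit CD11b, by 0.56 (SE 0.13). In all of these replicate 1 of week 28, the library with the most meningeal RNA, was the highest; the part of meningeal tissue in the result was not tested.

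Of 18 genes of activated microglia 6 rose and 0 fell (median 0.242), and 3 rose without replicate 1 of week 28. The share called was 33.3%, near the 33.7% of all genes, where 16% were higher and 17.7% lower. In each step 1 member was called higher. The 6 that rose included the class II genes H2-Aa, at 7.78, 3.77 and 4.10 FPKM at week 28 against 1.63, 1.11 and 2.43 FPKM at week 5, and Cd74, the class II invariant chain, which rose by 1.13 (SE 0.33). Without replicate 2 of week 5 the adjusted p of Cd74 was 0.0702 (limma), and without replicate 1 of week 28 it was 0.0701. Ctsb, cathepsin B, rose by 0.25 (SE 0.04) and Cd52 by 0.79 (SE 0.18). Of 11 complement genes 6 rose and 0 fell (median 0.588), and 3 rose without replicate 1 of week 28. C4b, component 4, held 1.62, 1.28 and 2.08 FPKM at week 5, 3.23, 2.33 and 2.46 FPKM at week 12 and 8.64, 6.31 and 4.28 FPKM at week 28, with no overlap of any ages (log2 fold change 1.45, SE 0.23, adjusted p = 0.000305; limma); a near-identical gene, C4a, lies beside it, and the split of reads is uncertain. C1qb and C1qc, chains of the first component, made by microglia, rose by 0.86 (SE 0.24) and 0.84 (SE 0.23), and the adjusted p of C1qb was 0.059 without replicate 1 of week 28 (limma).

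Class I antigen presentation rose, with 11 of 16 genes higher and 0 lower (median 0.511), and 7 higher without replicate 1 of week 28. The early median was 0.397 with 5 members called higher, and the late median was 0.128, with 0 called by limma and 0 at an unadjusted p under 0.05. The difference of the steps was called for 0 of the 16. H2-K1, a class I heavy chain, held 12.4, 10.6 and 13.4 FPKM at week 5, 19.2, 23.8 and 24.3 FPKM at week 12 and 29.9, 26.4 and 19.7 FPKM at week 28. The 6 later libraries overlapped each other and lay above week 5 (log2 fold change 0.99 with an SE of 0.22, adjusted p = 0.00323; limma). B2m, the light chain that every class I molecule needs, rose by 0.84 (SE 0.16), H2-Q4 by 0.87 (SE 0.17) and H2-D1 by 0.42 (SE 0.10); heavy chain genes are near-identical copies, and reads may be split wrongly among them. Psmb8, a subunit of the immunoproteasome, rose by 0.71 (SE 0.20), with an adjusted p of 0.0594 without replicate 1 of week 28 (limma).

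Interferon-induced genes had 5 of 18 members higher and 0 lower (median 0.373). That is 27.8% called, below the 33.7% of all genes tested, where 16% were higher and 17.7% lower. In this list 3 were higher without replicate 1 of week 28 and 8 without replicate 3. In the early and the late step 0 were called by limma, and 2 and 1 had an unadjusted p under 0.05. Ifit3, an antiviral protein gene, held 2.44, 2.30 and 3.27 FPKM at week 5, 2.14, 3.81 and 11.7 FPKM at week 12 and 12.2, 8.67 and 5.79 FPKM at week 28. One week 12 library was as high as those of week 28 and another as low as those of week 5 (log2 fold change from week 5 to week 28 1.38, SE 0.40, adjusted p = 0.0143; limma), and the adjusted p was 0.0578 without replicate 1 of week 28. Ifit2 rose by 0.83 (SE 0.15), Gbp2, a guanylate-binding protein, by 0.60 (SE 0.16) and Gbp3 by 0.46 (SE 0.12). Interferons act through the interferon-stimulated response element. Its core was searched on both strands as GAAA, any 2 bases and GAAA again. RefSeq promoters of 9 of 14 interferon-induced genes (64.3%) and of 4 of 15 class I genes (26.7%) held it, against 352 of 10117 tested genes (3.48%). These counts cover list members whether called or not, so they do not bear on change with age. Of the members named, B2m, Ifit3, Gbp2 and Gbp3 held a match, and Ifit2, H2-K1, H2-D1, H2-Q4 and Psmb8 did not. The promoters of B2m (chr2:122147437-122147736, plus strand) and Ifit3 (chr19:34583279-34583578, plus strand), in the same window and build, are shown as members of these lists with a match, in capitals. The match of B2m begins 139 bases before the start, and those of Ifit3, read on the opposite strand, begin 156 and 122 bases before it:
B2m promoter: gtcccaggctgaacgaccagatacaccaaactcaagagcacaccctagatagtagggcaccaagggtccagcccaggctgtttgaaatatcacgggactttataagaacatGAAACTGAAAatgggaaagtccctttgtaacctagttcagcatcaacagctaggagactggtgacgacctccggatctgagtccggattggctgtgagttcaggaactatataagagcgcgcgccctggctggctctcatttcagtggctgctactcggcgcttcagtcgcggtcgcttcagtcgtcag
Ifit3 promoter: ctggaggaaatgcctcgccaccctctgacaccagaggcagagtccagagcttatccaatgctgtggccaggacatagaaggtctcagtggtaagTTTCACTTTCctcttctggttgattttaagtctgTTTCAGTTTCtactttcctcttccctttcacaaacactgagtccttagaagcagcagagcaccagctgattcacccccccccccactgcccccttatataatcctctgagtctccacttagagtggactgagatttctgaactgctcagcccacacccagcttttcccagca

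Of 25 genes of Bergmann glia and astrocytes 6 rose and 4 fell (median 0.0617), where 16% of all genes rose and 17.7% fell; 3 rose without replicate 1 of week 28 or replicate 3 of week 5, and 2 fell without replicate 2 of week 28 or replicate 3 of week 5. Fabp7, a fatty acid binding protein of immature and Bergmann glia, stood at 85.8, 64.2 and 59.8 FPKM at week 28 against 184, 176 and 193 FPKM at week 5, which do not overlap; its log2 fold change was -1.40 (SE 0.15, adjusted p = 9.56e-06; limma). The glial transcription factor gene Sox9 rose by 0.43 (SE 0.09), the bicarbonate transporter gene Slc4a4 by 0.29 (SE 0.07) and the gap junction gene Gjb6 by 0.49 (SE 0.12). Of 15 reactive astrocyte genes 6 rose and 0 fell (3 without replicate 1 of week 28), but Gfap, the filament protein that defines the state, stood at 134, 83.1 and 69.5 FPKM at week 28 against 90.2, 77.5 and 87.4 FPKM at week 5, which overlap (log2 fold change 0.11, SE 0.30, adjusted p = 0.802; limma), and its sign turned without replicate 1 of week 28 (-0.157). C4b and Psmb8, given above, are among those that rose, along with Aspg (0.57, SE 0.12) and Cd109 (0.48, SE 0.13).

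Immediate early genes, which neurons switch on within minutes of firing, were mostly lower at week 28, with most of the calls in the step after week 12. Of 21 tested, 10 were lower and 3 higher (median -0.537). The early median was 0.0344, with 1 called lower, and the late median was -0.606, with 10 called lower and 2 higher. Nr4a3, a nuclear receptor of this class (chromosome 4, 48051248 to 48083352, mm10), held 5.02, 7.85 and 5.96 FPKM at week 5, 6.46, 8.33 and 9.56 FPKM at week 12 and 0.899, 1.39 and 1.14 FPKM at week 28. Weeks 5 and 12 overlapped and week 28 lay far below (log2 fold change -1.75, SE 0.22, adjusted p = 3.21e-05; difference of the steps, adjusted p = 0.0031; limma). Its relative Nr4a2 held 5.69, 8.24 and 6.86 FPKM at week 5, 6.05, 9.82 and 8.78 FPKM at week 12 and 1.74, 1.59 and 1.95 FPKM at week 28, the same order (log2 fold change -1.51, SE 0.15), and Nr4a1 changed by -0.86. Fosl2, an AP-1 subunit, changed by -1.26 (SE 0.11) and Bdnf, the activity-dependent neurotrophin, by -1.09 (SE 0.13). The 3 members that rose were Egr1, by 0.74 (SE 0.13), Junb, by 0.38 (SE 0.13), and Ier5, by 0.24; 1 rose without replicate 3 of week 28, and without replicate 1 of week 28 the adjusted p of Junb was 0.155 (limma). Its call also ended without replicate 3 of week 28 or replicate 1 or 3 of week 5, and that of Ier5 without replicate 2 of week 5 (adjusted p = 0.0668) or replicate 3 of week 28 (0.0602). The labels do not state the time of day at which tissue was taken.

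Circadian clock genes changed in both directions: 10 of 19 rose and 5 fell. Nr1d1, which encodes REV-ERB alpha, held 35.6, 41.0 and 36.5 FPKM at week 5, 47.9, 44.8 and 44.7 FPKM at week 12 and 59.7, 61.7 and 63.2 FPKM at week 28. The ages did not overlap (log2 fold change 0.70, SE 0.06, adjusted p = 9.86e-07; limma). Hlf rose by 0.70 (SE 0.06), Bhlhe40 by 0.74 (SE 0.09), Bhlhe41 by 0.63 (SE 0.06) and Dbp by 0.78 (SE 0.11). Among the 5 that fell were Arntl, which encodes BMAL1, the activator that Nr1d1 represses, by -0.47 (SE 0.06), and Per1, at 9.12, 10.7 and 9.99 FPKM at week 28 against 14.5, 17.5 and 15.6 FPKM at week 5 (log2 fold change -0.62, SE 0.12). Per1 also stands among the glucocorticoid-induced genes, of which 4 of 15 fell and 2 rose, with Klf9 at -0.34 (SE 0.06) and Errfi1 at -0.29 (SE 0.06).

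Matrix and vessel genes were more often lower than higher. Of 30 collagens, laminins and related genes 8 were lower and 1 higher at week 28, while 13 were lower at week 12 (early median -0.38, late median 0.212), and the difference of the steps was called for 3; 5 fell without replicate 3 of week 5 or replicate 2 or 3 of week 28. The share called between week 5 and week 28 was 30%, below the 33.7% of all genes tested. Col4a1, a collagen of vessel basement membranes, held 7.75, 8.57 and 8.55 FPKM at week 5, 3.85, 3.32 and 3.50 FPKM at week 12 and 3.08, 3.01 and 2.74 FPKM at week 28. Each age lay below the one before (log2 fold change -1.24, SE 0.14, adjusted p = 1.76e-05; limma). Nid1, which links that sheet to laminin, changed by -1.14 (SE 0.12), Col4a2 by -0.86 (SE 0.11) and the fibrillar collagen gene Col3a1 by -1.13 (SE 0.26), whereas Col5a1 rose by 0.66 (SE 0.17). Eln, elastin, stood at 6.33, 9.71 and 7.46 FPKM at week 5, 1.48, 1.53 and 1.73 FPKM at week 12 and 2.15, 1.93 and 1.99 FPKM at week 28, a fall complete by week 12 (difference of the steps, adjusted p = 0.000338; limma). Gsn, gelsolin, an actin-severing protein abundant in oligodendrocytes, showed the same course, at 86.2, 100 and 94.8 FPKM at week 5, 27.3 to 29.8 FPKM at week 12 and 29.8 to 42.6 FPKM at week 28.

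Of 21 genes of endothelium and pericytes 9 fell and 1, the VEGF receptor gene Flt1, rose by 0.27; 5 fell without replicate 2 of week 5. In the early step 4 were called lower and 1 higher (median -0.166), in the late step 1 lower and 0 higher (median -0.0491), and the difference of the steps was called for 0. Mfsd2a, the lipid transporter of the blood-brain barrier, stood at 5.13, 5.79 and 4.79 FPKM at week 28 against 11.4, 12.7 and 10.03 FPKM at week 5 (log2 fold change -0.99, SE 0.11), Kdr changed by -0.67 (SE 0.09) and the tight junction gene Cldn5 by -0.55 (SE 0.09). In contrast, 5 of 16 meningeal genes rose and 0 fell (median 0.45, with 31.2% called against 33.7% of all genes), but this rested on single libraries, with 2 higher without replicate 1 of week 28 or without replicate 1 or 2 of week 5 and 8 without replicate 2 of week 28. Ptgds, prostaglandin D synthase, showed this, at 3716, 1625 and 1656 FPKM at week 28 against 966, 1110 and 1310 FPKM at week 5. The choroid plexus list had 0 of 18 members called by limma and 0 at an unadjusted p under 0.05. Of 10 blood genes 1 was lower and 0 higher; 4 were lower without replicate 1 of week 28, in which the mean log2 level of the list was 5.42 against 4.03 and 2.99 in the other libraries of that age.

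Among the lists of perineuronal nets, the matrix that forms around neurons as circuits mature, and of imprinted growth genes, changes ran both ways. Bcan, brevican, stood at 74.4, 80.6 and 81.1 FPKM at week 28 against 54.0, 54.9 and 52.6 FPKM at week 5 (log2 fold change 0.54, SE 0.05), while Ncan, neurocan, changed by -0.52 (SE 0.13) and the link protein gene Hapln1 by -0.61 (SE 0.08); 3 of 11 net genes rose and 3 fell. Of 17 imprinted genes 5 rose and 2 fell, and 3 rose without any one library of week 5 or without replicate 3 of week 28. Mest, expressed from the paternal copy in growing tissue, stood at 4.52, 4.43 and 5.81 FPKM at week 28 against 11.3, 11.8 and 11.6 FPKM at week 5 (log2 fold change -1.09, SE 0.13), H19 changed by -0.85 (SE 0.13) and Grb10 by 0.51 (SE 0.10).

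Cytosolic ribosomal protein genes rose slightly, 18 of 43 with 1 lower (median 0.177), and 13 rose without replicate 1 of week 28. Their mean log2 level, as log2(FPKM + 1), was 8.01 in that library, 7.87 and 7.75 in the others of week 28 and 7.63 to 7.72 at week 5. The list was led by Rpl37, at 186, 164 and 148 FPKM at week 28 against 124, 117 and 121 FPKM at week 5 (log2 fold change 0.46, SE 0.07). Rpl14, Rps23 and Rps15 rose by 0.37 (SE 0.07), 0.39 (SE 0.07) and 0.32 (SE 0.07); ribosomal protein genes have many processed pseudogenes that can take some of their reads. The mTORC1 pathway, the growth control that the series title names, had 5 of 35 members higher and 5 lower (median -0.0356). That is 28.6% called, below the 33.7% of all genes tested. Nprl3, a part of the complex that restrains mTORC1, rose by 0.41 (SE 0.06), all of it after week 12, Tsc1, another brake, by 0.26 (SE 0.06) and Rps6, a ribosomal protein whose phosphorylation reports mTORC1 activity, by 0.31 (SE 0.06), while Akt1s1, an inhibitory subunit, changed by -0.21 (SE 0.05). RNA levels do not show the activity of this kinase.

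Of 36 oxidative phosphorylation genes 12 fell and 1 rose (median -0.121; early -0.112, with 11 lower). Cox7c, a subunit of complex IV, stood at 478, 504 and 458 FPKM at week 28 against 719, 699 and 672 FPKM at week 5 (log2 fold change -0.54, SE 0.07), and Sdha, of complex II, was the one that rose (0.25, SE 0.04). Of 20 glycolysis genes 2 fell and 3 rose, and 1 rose without replicate 3 of week 5 or replicate 2 of week 28. With 25% called, this list was below the 33.7% of all genes tested. The lactate dehydrogenases went opposite ways, with Ldha at -0.51 (SE 0.09) and Ldhb at 0.33 (SE 0.07). Of 20 heat-shock chaperone genes 7 fell and 1 rose, and in the late step 7 were called lower: Dnaja1 changed by -0.33 (SE 0.05), Fkbp4 by -0.31 (SE 0.05) and Hsph1 by -0.25 (SE 0.05), and Bag3, a co-chaperone of protein clearance, rose by 0.70 (SE 0.16); 4 fell without replicate 3 of week 28. Of 23 genes of the unfolded protein and integrated stress responses 1 rose, Ddit3, by 0.32 (SE 0.07), and 1 fell. That is 8.7% called, below the 33.7% of all genes. Of 17 thyroid hormone responsive genes 4 rose, among them the receptor gene Thrb by 0.44 (SE 0.07), and 4 fell. Of 12 tested proliferation genes 3 rose, all from the replication helicase, with Mcm4 at 0.35 (SE 0.04) and Mcm5 at 0.36 (SE 0.06), and 2 fell; 0 fell without replicate 2 or 3 of week 5 or replicate 2 of week 28. The other genes of that list did not pass the filter. Among them, Mki67 and Top2a reached at most 0.203 and 0.385 FPKM in any library.

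Over all 4551 called genes, the median share of the change present at week 12 was 52.2% for the higher and 51.6% for the lower genes. Of the 2164 higher genes 698 (32.3%) had at least 66.7% of their change at week 12, 617 (28.5%) had under 33.3% and 849 lay between. Of the 2387 lower genes 799 (33.5%), 746 (31.3%) and 842 did so in the same order. These shares are ratios of estimates and were not tested. Neither step alone was called for 1197 of the higher and 1114 of the lower genes. The difference of the steps was called for 54 of the higher and 121 of the lower genes. The step to week 12 alone called 1595 genes (11.8%) and the step from week 12 to week 28 1301 genes (9.65%). Without replicate 1 of week 12 the early step called 955, and without replicate 3 of week 12 the late step called 635. These steps share the week 12 libraries. A tested difference between them was found for 235 genes (1.74%), taken as the early minus the late change. Its largest positive values among named genes were those of Gdf1, Rn45s, Rpl31-ps12, Nr4a3, Eomes and Lars2, and its largest negative ones those of Cers1, Dynlt1a, Nox1, Rpl14-ps1, Eln and Gsn. Without replicate 3 of week 12 the count was 78, and without replicate 1 of week 28 it was 402. The call of Lars2 ended without replicate 1 (adjusted p = 0.11) or replicate 3 of week 12 (0.0993), and that of Cers1 without replicate 1 (0.0948) or replicate 2 of week 12 (0.101; limma). Cers1, a ceramide synthase, and Gdf1, a growth factor, are read from a shared transcript in mouse, and the split between them is uncertain. Cers1 stood at 2.07, 1.42 and 17.1 FPKM at week 12 where Gdf1 stood at 22.7, 24.7 and 7.95 FPKM, so the pair changed places among the replicates of one age.

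Some genes changed abruptly at week 28 in both genotypes. In 18 genes all 6 week 28 libraries lay at least 2-fold beyond all 12 earlier libraries, on FPKM + 0.1, with 10 higher and 8 lower; the same search gave 0 genes for week 12 and 1 for week 5. Nox1, an NADPH oxidase gene, stood at 2.93, 3.58 and 3.61 FPKM in the Cck-/- week 28 libraries and at 0, 0.0302 and 0.0167 FPKM in those of week 5. Adamts13, the protease of von Willebrand factor, held 1.64, 3.10 and 4.02 FPKM at week 28 and no more than 0.00443 FPKM at week 5. Dynlt1a, a dynein light chain gene with near-identical neighbours, stood at 14.2, 14.7 and 11.9 FPKM against 2.27, 2.49 and 2.69 FPKM. On the lower side, Srsf4, a splicing factor gene, stood at 7.33, 8.93 and 8.69 FPKM at week 28 against 30.1, 31.2 and 29.6 FPKM at week 5, with 28.7 to 31.5 FPKM at week 12. Cpne8, a copine gene, stood at 8.68, 8.89 and 9.91 FPKM at week 28 against 33.5, 27.4 and 30.5 FPKM at week 5. The pseudogenes Rpl14-ps1, at 0 FPKM in all 6 earlier Cck-/- libraries, and Rpl31-ps12 belong here too, as do Nr4a2 and Nr4a3. These libraries are also the deepest, and the part of library preparation or sequencing in these genes was not tested.

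**Figure D4:**
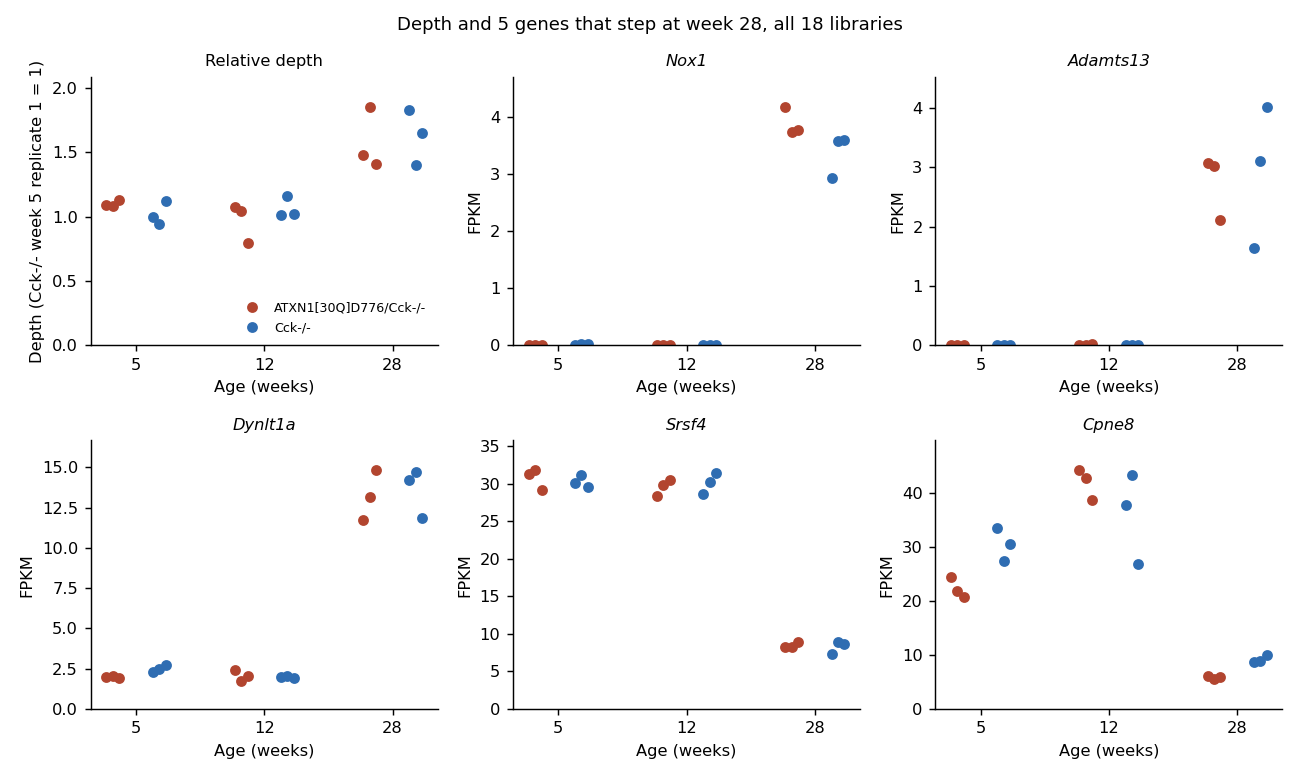
Relative depth (first panel) and FPKM of 5 genes in all 18 libraries, with ATXN1[30Q]D776/Cck-/- in red and Cck-/- in blue beside it at each age in weeks; each point is a library and all axes are linear from 0. Week 28 libraries of both genotypes are the deepest, at 1.4 to 1.85, and lie apart from all earlier libraries for Nox1, Adamts13, Dynlt1a, Srsf4 and Cpne8.

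The same ages in transgenic cerebellum, a comparison that shares no library with that of Cck-/-, gave changes in the same direction for most genes. The calls of both genotypes came from a fit with a shared estimate of spread, so they are not independent. Of the 2164 genes higher at week 28 in Cck-/-, 1949 (90.1%) had the same sign in transgenic libraries and 1219 (56.3%) were called the same way. For the 2387 lower genes the counts were 2186 (91.6%) and 1422 (59.6%). The share of all genes called in transgenic libraries is not reported here, so 56.3% and 59.6% stand without a background share. The log2 fold changes correlated across the 13487 genes with r = 0.659, where genes are not independent and the ages of both genotypes share the difference in depth. The difference between the changes was tested, and it passed for 492 genes (3.65%), of which 298 were called in Cck-/-. The count of 492 was 1058 without transgenic week 28 replicate 3, 670 without Cck-/- week 28 replicate 1 and 120 to 272 without any one of the other libraries compared, with 120 without transgenic week 28 replicate 1. Transgenic week 28 replicates 1 and 3 and week 5 replicate 1 held RNA of Xist and of the Y-linked gene Ddx3y, and transgenic week 28 replicate 3 and week 5 replicates 1 and 2 had little choroid plexus RNA. In transgenic week 28 replicate 2 the few most abundant genes held 14.5% of the summed FPKM. The same number of genes held 3.41% to 4.2% in the other libraries of the series.

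Myelin genes had a tested difference for 12 of 26, all positive, against 1.73% of all genes in that direction. Ugt8a stood at 35.8, 34.2 and 31.6 FPKM in transgenic week 28 libraries against 59.0, 66.3 and 59.4 FPKM in transgenic week 5 libraries (log2 fold change -0.84), so its fall of 1.80 on the log2 scale in Cck-/- was larger by 0.96 (SE 0.13, adjusted p = 0.00208; limma). At week 28 the genotypes overlapped, with 31.6 to 35.8 FPKM in transgenic and 25.3 to 32.8 FPKM in Cck-/- libraries, and at week 5 they did not, with 59.0 to 66.3 FPKM in transgenic and 94.1 to 117 FPKM in Cck-/- libraries. Cholesterol synthesis genes had a tested difference for 7 of 24, and their median change was -0.232 in transgenic and -0.55 in Cck-/- libraries. Purkinje cell identity genes had one for 16 of 29, all negative, against 1.92% of all genes in that direction. Their median change was -0.856 in transgenic libraries and 0.0522 in Cck-/- libraries. In transgenic libraries 27 of them were called lower, but the share over all genes is not reported here. Itpr1 stood at 133, 97.7 and 207 FPKM in transgenic week 28 against 314, 303 and 278 FPKM in transgenic week 5 libraries, and the difference between the genotypes' changes was -1.50 (SE 0.27, adjusted p = 0.0106; limma). Homeostatic microglia genes had a median change of 0.974 in transgenic and 0.467 in Cck-/- libraries, with a tested difference for 1 of 22. Among the largest differences toward a rise in transgenic libraries were those of Nxpe4 (1.29, SE 0.21), S100a10, a calcium-binding protein gene (1.23, SE 0.22), and Them4, a thioesterase gene (1.53, SE 0.33), which fell by 0.90 in Cck-/- libraries and had a difference with an adjusted p of 0.0679 without transgenic week 28 replicate 1 (limma). Its call also ended without transgenic week 28 replicate 2, Cck-/- week 28 replicate 2 or Cck-/- week 5 replicate 1 or 3. Toward a fall were those of Pla2g4e, a phospholipase gene (-1.26, SE 0.17), and Tuba1c, an alpha-tubulin gene with near-identical copies (-2.94, SE 0.32). Tuba1c stood at 2.44, 1.74 and 0.643 FPKM in transgenic week 28 against 19.8, 20.3 and 22.6 FPKM in transgenic week 5 libraries, and at 1.80, 1.41 and 2.49 FPKM in Cck-/- week 28 against 2.38, 1.99 and 2.45 FPKM in Cck-/- week 5 libraries. Transgenic week 5 libraries alone were high. Cck stood at 8.35, 6.34 and 4.85 FPKM in transgenic week 28 against 81.0, 112 and 102 FPKM in transgenic week 5 libraries, a fall larger than that in Cck-/- (difference -1.83, SE 0.32, adjusted p = 0.0105; limma).

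**Figure D5:**
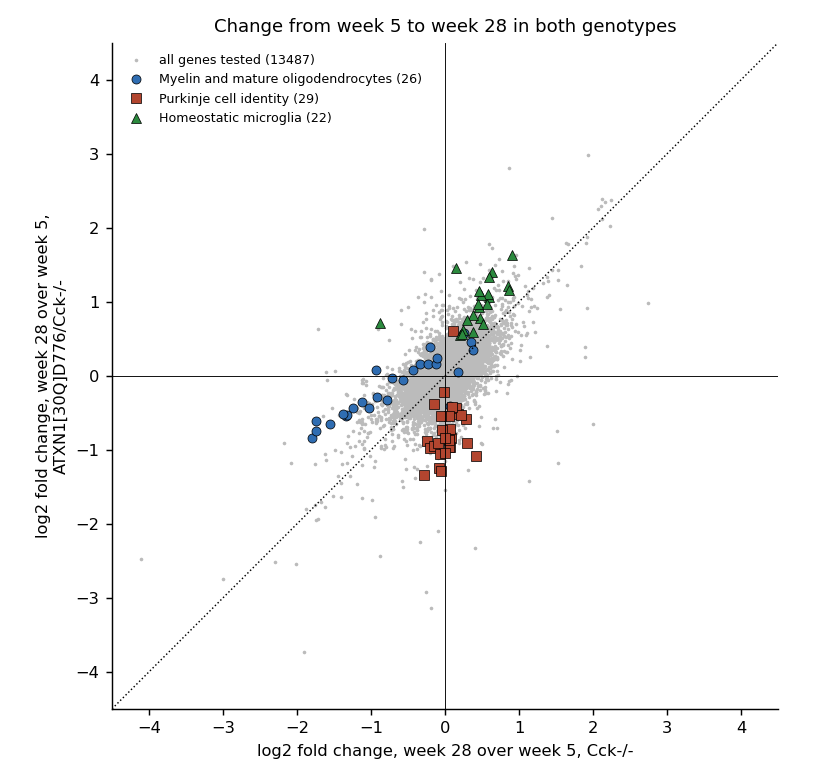
Log2 fold change from week 5 to week 28 in ATXN1[30Q]D776/Cck-/- (vertical axis) against that in Cck-/- cerebellum (horizontal axis) for all 13487 genes tested (grey), with 3 gene lists in colour; the dotted line marks equal change. Most myelin genes lie above the line, many of them on the lower left. All Purkinje cell identity genes but Syndig1l lie below 0 in transgenic libraries and spread around 0 in Cck-/- libraries, and microglia genes lie above 0 in both, except Fcrls, which lies below 0 in Cck-/- libraries.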

How the data were processed

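RNA-seq of cerebellum was analysed from the FPKM values that the authors deposited; per the submitters' processing notes it was made with TopHat2 2.0.11 and Cufflinks 2.2.1 on mm10. FPKM holds no read counts, so no count test was run, and Cufflinks can share reads among near-identical genes. Values were taken as log2(FPKM + 1), which understates the change of low genes. A limma 3.58.1 trend model (R 4.3.3, with version 1.17.8 of the data.table package) with 6 group means over the 18 libraries (12 residual degrees of freedom) was fitted to the 13487 genes with at least 1 FPKM in at least 3 libraries, with two-sided tests and Benjamini-Hochberg adjustment over all of them. The contrasts were week 28 minus week 5, both steps, the difference of the steps and the difference between the genotypes' changes. Data for week 28 minus week 5 were simulated with normal noise drawn independently for each gene and library. The model recovered 97% of 100 genes changed by 1 and 79% of 100 changed by 0.5 on the log2 scale. It called 15 of 13287 unchanged genes. The simulation held no difference shared by the genes of a library, such as depth, so that count does not carry over to these libraries.

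Group and age came from the labels. The members and the 44 gene lists (794 distinct genes tested) were chosen with earlier results of these data known. Named genes were the 12 largest called changes without overlap in each direction (predicted and clone-named symbols left out), up to 4 called members of each list with the smallest p, Cck, Cckar, Cckbr, Atxn1 and Pcp2, and for the difference of the steps and of the genotypes the 6 largest values in each direction. Not all of them are described, and some results are not reported here. Anln, Arntl, Bag3, Calb1, Col5a1, Dbp, Egr1, Fcrls, Flt1, Gfap, Ier5, Junb, Nr4a1 and Tubb3 were singled out after their values were seen. Promoters came from RefSeq, GRCm38.p6. Alternatives were other pseudocounts, filters, scalings, library weights, subsets of libraries, the replicate block and leaving out each library. Figures were drawn with Python 3.11.15, pandas 2.3.3, numpy 2.4.6 and matplotlib 3.10.9.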

Additional observations from a re-analysis of the deposited data

Results flagged for a closer look

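For 37 genes named above the change from week 5 to week 28 differed between transgenic and Cck-/- cerebellum in a test of that difference itself (limma interaction, adjusted p under 0.05), and this is what picked them out. The values are transgenic minus Cck-/-, on the log2 scale. The difference was positive for 25 of them. Among myelin and oligodendrocyte genes it was 0.29 for Sirt2, 0.54 for Olig2, 0.77 for Mbp, 0.79 for Fa2h, 0.80 for Gal3st1, 0.90 for Mog, 0.96 for Ugt8a, 0.99 for Mal and 1.14 for Cldn11. All of these fell less in transgenic libraries or did not fall there. In cholesterol synthesis it was 0.32 for Fdps, 0.75 for Cyp51 and 0.78 for Hmgcs1. Among matrix and vessel genes it was 0.59 for Kdr, 0.67 for Hapln1, 0.71 for Col4a2, 0.92 for Col4a1 and 1.10 for Eln. For single genes it was 0.90 for Necab3, 0.90 for Gsn, 1.01 for Cacna1e, 1.04 for Marcks, 1.11 for Ntf3, 1.23 for S100a10, 1.29 for Nxpe4 and 1.53 for Them4.

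The difference was negative for the other 12. Among Purkinje cell genes it was -1.50 for Itpr1, -1.02 for Calb1 and -0.996 for Pcp2, none of which was called in Cck-/- libraries. It was -2.94 for Tuba1c, -1.83 for Cck, -1.26 for Pla2g4e, -1.15 for Scg5, -0.65 for Zkscan16, -0.44 for Gad2, -0.37 for Scn1a, -0.32 for Nr1d1 and -0.30 for Hsph1. Groups held 3 libraries each, so no library was tested as an outlier.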

How the results depend on the processing

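The count of 4551 genes between week 28 and week 5 was 3600 to 4687 under other pseudocounts, filters, scalings, variance models without library weights, covariates and subsets of libraries, and 3551 to 4225 with each library left out. Leaving out single libraries gave 955 to 1214 genes for the early step, 635 to 1301 for the late step, 78 to 402 for the difference of the steps and 120 to 1058 for the difference between genotypes. With library weights the counts were 7706, 3907, 4244, 1876 and 4325 in the same order. Fits on the groups compared alone gave 140 for the late step, 136 for the difference of the steps (136 also on the 9 Cck-/- libraries) and 189 for the difference between genotypes; fewer residual degrees of freedom are part of those fits. Replicate numbers did not pair the samples, since same-numbered week 28 and week 5 libraries correlated at -0.148, 0.18 and -0.122; with the replicate block 4551 genes were called, 4380 of them shared, and the other counts were 1544, 1200, 225 and 520. The share of higher genes in the difference between genotypes was 47.4%, 32.7% without libraries holding both Xist and Y-linked RNA and 37.1% without those low in choroid plexus RNA, alternatives chosen after seeing the data. Signs turned for 3 genes that were not called, whose range with each library left out was -0.183 to 0.189 for Cckbr, -0.157 to 0.31 for Gfap and -0.0489 to 0.277 for Atxn1: Cckbr with quantile normalization (-0.0404), library weights (-0.261) and without week 5 replicate 2 (-0.0314) or week 28 replicate 1, Gfap with library weights (-0.0886) and without week 28 replicate 1, and Atxn1 without week 28 replicate 3; the cause was not tested. Of all alternatives for named genes 4360 kept direction and side of the threshold, 133 lost the call and 1 gained it; of those for list counts 1831 stayed within 1.5 times and 105 did not. Read numbers are unknown, so depth limits could not be set per gene.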
